A study of Mus musculus with 9 samples.

Results

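Leptin (Lep) and 6 further genes whose messages are made chiefly by fat cells were followed in mouse calf muscle. They were the secreted products adiponectin (Adipoq), resistin (Retn) and complement factor D or adipsin (Cfd), the lipid droplet proteins perilipin 1 (Plin1) and Cidec, and the fatty acid carrier Fabp4. They were chosen by name as textbook adipocyte genes, with earlier results of these data known. All 7 were found among the 13179 genes of the table. The study sequenced polyadenylated RNA of the gastrocnemius from mice after 6 weeks of high-fat feeding, in 3 groups of 3 libraries. All groups shared the diet. The groups were controls, mice lacking the kinase p38α in muscle (p38αMCK-KO, here p38α KO) and mice lacking p38α and p38γ (p38α/γMCK-KO, here p38α/γ KO). MCK is the usual abbreviation of muscle creatine kinase, whose promoter is active in striated muscle fibres and not in fat cells, so a deletion under it is aimed at the fibres. Strain, age and sex are not stated in the labels used here, and neither is whether the libraries of a group came from separate animals. The p-values therefore measure the spread between these libraries only.

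Adipocytes store triglyceride in a single large droplet and secrete hormones. Leptin is the hormone that reports the size of the fat stores to the brain, and its message rises with fat cell size and with feeding. Adiponectin is secreted by fat cells and raises the use of fatty acids in muscle and liver. Muscle fibres themselves make very little of either, and a gastrocnemius sample can hold fat cells that lie between the muscles and bundles. In such bulk tissue, fewer cells of a type and less RNA per cell cannot be told apart.

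The start regions of the 2 main hormone genes are shown as background. Each line gives the 250 bases before the transcription start in RefSeq, on GRCm38.p6 and 5′ to 3′ on the gene's strand. The Lep stretch lies at chr6:29059971-29060220 and the Adipoq stretch at chr16:23146286-23146535, both on the plus strand. Capitals mark matches to 3 motifs searched on both strands, the C/EBP palindrome TTGCGCAA, the CCAAT box CCAAT and the TATA motif TATAA.

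Lep: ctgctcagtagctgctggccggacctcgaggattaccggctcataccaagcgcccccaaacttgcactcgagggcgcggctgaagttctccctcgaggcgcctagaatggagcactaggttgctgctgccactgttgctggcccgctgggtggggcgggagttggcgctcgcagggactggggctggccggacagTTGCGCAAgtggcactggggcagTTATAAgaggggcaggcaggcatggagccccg
Adipoq: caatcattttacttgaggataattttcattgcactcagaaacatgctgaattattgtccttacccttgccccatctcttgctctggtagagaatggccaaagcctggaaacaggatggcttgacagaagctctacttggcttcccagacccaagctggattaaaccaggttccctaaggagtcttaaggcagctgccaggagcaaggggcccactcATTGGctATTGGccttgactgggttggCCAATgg

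The Lep stretch held TTGCGCAA from 55 to 48 bases before the start, which 0.164% of all 32851 RefSeq windows of this length held. C/EBP proteins, regulators of fat cell genes, are known to bind such palindromes. It also held TATAA once on each strand, overlapping, between 32 and 27 bases before the start (22.8% of windows). The Adipoq stretch held neither, but had CCAAT 3 times within the last 34 bases, 2 of them read on the minus strand (33.8% of windows have at least 1). The direct repeat bound by PPARγ with its partner RXR, searched in its consensus form, was not found in the windows of the 6 matched genes and is in 0.0335% of all windows. G and C made up 65.6% of the Lep stretch and 48.8% of the Adipoq stretch, against a median of 52.4% over all windows. These matches describe letters only.

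The deleted genes were at their lower levels in the libraries labelled as knockouts. Mapk14, which encodes p38α, read 143, 149 and 157 in the controls, 43.8, 45.5 and 40.3 in p38α KO muscle and 54.7, 37.0 and 42.7 in the p38α/γ KO. Mapk12, which encodes p38γ, read 140, 138 and 152 in the controls, 96.5, 103 and 105 in p38α KO muscle and 31.2, 35.5 and 32.8 in the p38α/γ KO. It thus also fell in the p38α KO, whose label names p38α alone (log2 change -0.49, limma adjusted p = 0.00601). All 9 libraries were of similar inferred depth (23.8 to 27.9 M reads). Library 1 of the p38α KO stood apart in its group, with a correlation of 0.96 to library 3 and 0.976 to library 2 across genes, against 0.987 or more within the other groups and 0.988 between the other p38α KO pair. The 8 listed muscle fibre markers summed to 145682 to 159357 in the controls, 85077 to 130421 in the p38α KO and 105469 to 110280 in the p38α/γ KO. By the test 1 of the 8 was lower in each knockout, Acta1 in the p38α KO and Actn3 in the p38α/γ KO. Of all genes, 10.4% and 14.4% were lower.

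In GENCODE M21 on GRCm38 the 7 protein-coding genes lie apart, Lep at chr6:29060220-29073877, Cidec at chr6:113424634-113435760, Adipoq at chr16:23146536-23158028, Retn at chr8:3655770-3660110, Cfd at chr10:79890853-79892655, Plin1 at chr7:79720218-79732903 and Fabp4 at chr3:10204088-10208576. All 7 adipocyte genes were measurable in all 9 libraries, with at least 22 inferred reads each. Per kilobase of annotated exon, which allows genes to be compared, the control medians of the deposited value were 84.5 for Fabp4, 33.8 for Cfd, 30.3 for Adipoq, 18.2 for Cidec, 8.70 for Lep, 3.20 for Retn and 2.67 for Plin1. Fabp4 stood clear of the next gene in that order (66.4 to 96.3 against 13.3 to 61.5 for Cfd), and the control libraries of all other neighbours overlapped. Annotated exons covered the whole 4489-base span of Fabp4, rarely used exons included, which lowers its figure. Fabp4 is also made by capillary endothelium and macrophages. It varied least, with its highest library 1.92-fold above its lowest. The same ratio was 34.8 for Lep and 8.44 to 14.3 for the other 5.

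**Figure D1:**
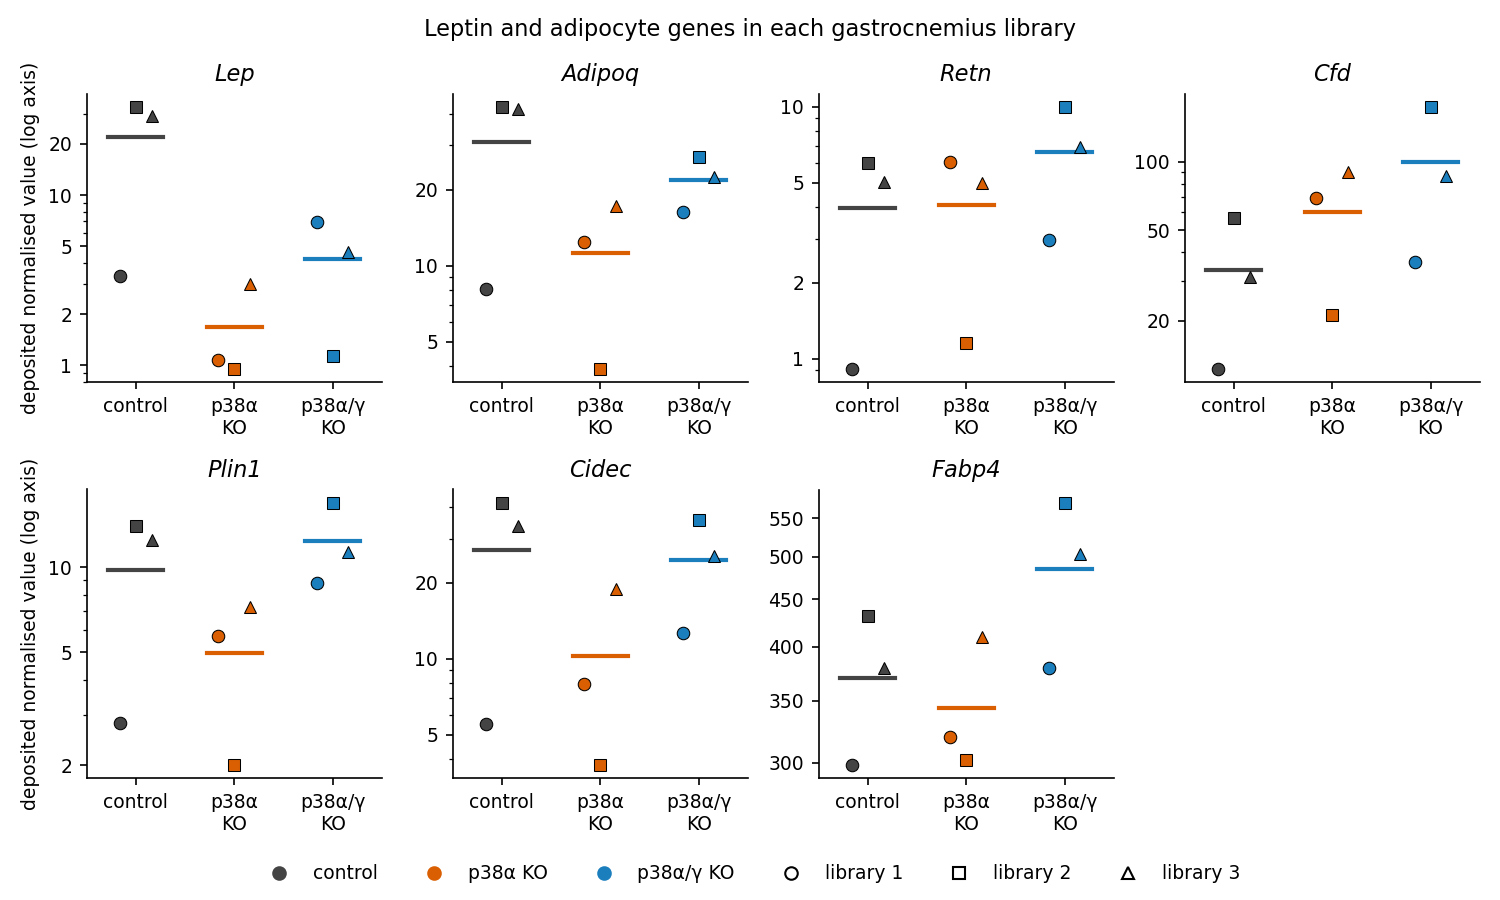
Deposited normalised values of the 7 adipocyte genes, 1 panel per gene on a log axis, with 1 point per library (colour for the group, shape for the library number) and a line at the group mean. Lep in the p38α KO lies below every control, and control 1 is the lowest of the 3 controls for all 7 genes.

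Leptin was the lowest in the single knockout. The normalised Lep value was 3.34, 33.0 and 29.2 in the controls (21.9 ± 16.2, SD, n = 3), 1.08, 0.950 and 3.01 in p38α KO muscle (1.68 ± 1.15) and 6.92, 1.14 and 4.65 in the p38α/γ KO (4.23 ± 2.91). Controls 2 and 3 stood far above all other libraries, and control 1 was close to the highest p38α KO library. The p38α KO libraries all lay below the controls, as they did for 21.1% of all genes, whereas 2 of the 3 p38α/γ KO libraries exceeded control 1. The inferred reads behind these values ran from 23 in p38α KO library 2 to 836 in control 2.

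Lep fell 6.50-fold in the p38α KO on the value + 1 scale (log2 change -2.70, SE 0.75, 95% interval -4.37 to -1.03, limma adjusted p = 0.0358). It was the only one of the 7 to pass the test there, against 17.8% of all 13137 tested genes, and 10.4% of all genes passed as lower. In the p38α/γ KO the Lep value was 3.60-fold lower (log2 -1.85, interval -3.52 to -0.17), which did not pass (adjusted p = 0.0936). None of the 7 passed in that comparison, against 25.6% of all genes. The difference between the knockouts did not pass either (log2 -0.85, interval -2.53 to 0.82, adjusted p = 0.681), so a difference in leptin between them was not shown.

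The Lep call rested on few libraries. Leaving out control 2 or control 3 ended it (log2 -2.18 and -2.26, adjusted p = 0.120 and 0.127). So did leaving out library 1 or 2 of the p38α KO (log2 -2.56 and -2.51, adjusted p = 0.0611 and 0.0945) or library 3 of the p38α/γ KO (adjusted p = 0.0546). It was also lost in a fit of the 6 libraries of the comparison (adjusted p = 0.0607). Without control 1, which had the lowest control value of all 7 genes, Lep passed in both knockouts (log2 -3.66, adjusted p = 0.00842, and -2.81, adjusted p = 0.0221), while 4.19% and 4.96% of all genes passed as lower.

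**Figure D2:**
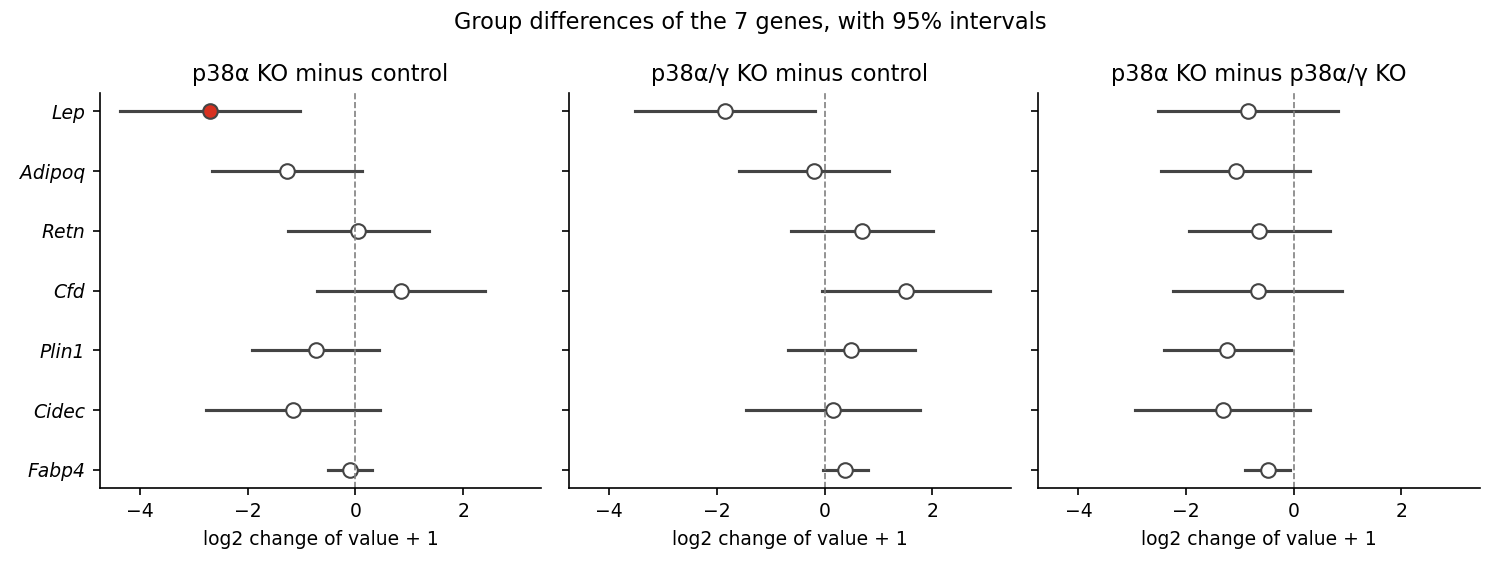
Log2 difference of value + 1 between groups for the 7 genes, with 95% intervals from the fit, in the 3 comparisons; the filled red point is the one that passed the adjusted p threshold of 0.05. Lep in the p38α KO is the single filled point, and most other intervals cross 0.

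Adiponectin followed the same controls but with a smaller gap. Its value was 8.08, 42.6 and 41.9 in the controls (30.8 ± 19.7), 12.4, 3.90 and 17.3 in p38α KO muscle (11.2 ± 6.78) and 16.3, 27.0 and 22.3 in the p38α/γ KO (21.9 ± 5.37). Control 1 was below all but 1 of the knockout libraries, so both knockouts overlapped the controls. The log2 difference was -1.27 for the p38α KO (interval -2.66 to 0.11, adjusted p = 0.178) and -0.19 for the p38α/γ KO (interval -1.58 to 1.19, adjusted p = 0.834). Without control 1 the first became -2.02 and passed (adjusted p = 0.0391).

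Resistin, a secreted cysteine-rich protein that opposes insulin action in rodents, was the scarcest by inferred reads (22 to 286). Retn read 0.911, 5.98 and 5.05 in the controls (3.98 ± 2.70), 6.06, 1.15 and 4.96 in p38α KO muscle (4.06 ± 2.58) and 2.96, 10.01 and 6.90 in the p38α/γ KO (6.62 ± 3.53). The groups overlapped in all comparisons. The log2 differences from control were 0.06 (interval -1.26 to 1.37, adjusted p = 0.959) and 0.70 (interval -0.61 to 2.01, adjusted p = 0.390), and the sign of the first depended on which library was left out.

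Cfd, the serine protease that starts the alternative complement pathway, had its lowest group mean in the controls. Its value was 12.3, 56.7 and 31.1 in the controls (33.4 ± 22.3), 69.4, 21.3 and 90.1 in p38α KO muscle (60.3 ± 35.3) and 36.3, 175.0 and 87.1 in the p38α/γ KO (99.5 ± 70.1). The highest library of the series, p38α/γ KO 2, had a Lep value of 1.14. The log2 difference from control was 0.85 in the p38α KO (interval -0.72 to 2.41, adjusted p = 0.422) and 1.52 in the p38α/γ KO (interval -0.04 to 3.08, adjusted p = 0.131), and neither passed.

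Plin1, which coats the droplet and gates lipolysis, read 2.82, 14.0 and 12.4 in the controls (9.75 ± 6.05), 5.73, 2.002 and 7.20 in p38α KO muscle (4.98 ± 2.68) and 8.77, 16.9 and 11.3 in the p38α/γ KO (12.3 ± 4.15). The knockouts did not overlap each other, with the p38α KO lower, as was the case for 7.58% of all genes. Their log2 difference was -1.23 (interval -2.41 to -0.06) and did not pass (adjusted p = 0.391), while 0.442% of all genes passed. Against control the Plin1 differences were -0.74 (adjusted p = 0.351) and 0.50 (adjusted p = 0.4997).

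Cidec, which helps droplets fuse into one, read 5.49, 41.7 and 33.7 in the controls (27.0 ± 19.0), 7.96, 3.78 and 18.9 in p38α KO muscle (10.2 ± 7.83) and 12.7, 35.7 and 25.7 in the p38α/γ KO (24.7 ± 11.6). Its order over the libraries was nearly that of Adipoq. The log2 differences from control were -1.16 (adjusted p = 0.282) and 0.16 (adjusted p = 0.886).

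Fabp4 read 298, 432 and 379 in the controls (370 ± 67.4), 319, 302 and 410 in p38α KO muscle (344 ± 57.7) and 379, 572 and 503 in the p38α/γ KO (485 ± 97.7). The log2 differences from control were -0.10 (interval -0.52 to 0.31, adjusted p = 0.733) and 0.38 (interval -0.03 to 0.80, adjusted p = 0.147). The knockouts differed by -0.49 (interval -0.90 to -0.07, adjusted p = 0.336). As Fabp4 is shared with endothelium, the 5 endothelial markers are given beside it: they summed to 279 to 316 in the controls, 275 to 302 in the p38α KO and 245 to 282 in the p38α/γ KO.

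Libraries carry the numbers 1 to 3 in every group. Between the controls and the p38α/γ KO, deviations of same-numbered ones from their group means correlated at 0.111, 0.124 and 0.148 across genes. Differently numbered ones of these groups gave -0.147 to 0.018. Elsewhere differently numbered libraries reached more, with 0.175 for p38α KO 2 and control 1 and 0.351 for p38α KO 2 and p38α/γ KO 1. Same-numbered libraries of the knockouts gave -0.331, -0.228 and 0.0885. Correlations of this size thus do not show a pairing. Taken in same-numbered pairs, Cfd in the p38α/γ KO was 2.97, 3.08 and 2.80 times its control. Fabp4 was 1.27, 1.32 and 1.33 times, and Retn 3.25, 1.67 and 1.37 times. A fit of these 6 libraries with the number as a block, chosen after seeing the data, passed Cfd (adjusted p = 3.39e-05), Fabp4 (0.00327) and Retn (0.0082) as higher, where 20.4% of all genes passed as higher and 43.4% in either direction. The Lep ratios were 2.07, 0.0344 and 0.159, and Lep did not pass there (adjusted p = 0.0825). That the numbers mark a shared animal, day or batch is stated in no label, and with all 9 libraries in the blocked fit none of the 4 passed.

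Most of the spread was shared between the genes. Over the 9 libraries, log2(value + 1) of Adipoq and Cidec had Pearson r = 0.96 (Spearman rho 0.98, exact permutation p adjusted over 21 pairs 0.000289 and 0.00104), and r was 0.94 without the 2 libraries farthest from the Adipoq median. Adipoq with Plin1 gave r = 0.94 (rho 0.93, exact adjusted p = 0.00129 and 0.00525, r = 0.90 without the 2 farthest). Plin1 with Cidec gave r = 0.96 (rho 0.97, exact adjusted p = 0.000666 and 0.00174, r = 0.91 without the 2 farthest). Cfd followed Retn most closely (r = 0.91, rho 0.80, exact adjusted p = 0.00187 and 0.0323, r = 0.81 without the 2 farthest). Among the 15 pairs without Lep, r ran from 0.51 to 0.96 with a median of 0.83.

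Lep shared less of this pattern. Its 6 pairs had r from -0.17 with Cfd to 0.72 with Adipoq, with a median of 0.33. The highest, with Adipoq (rho 0.70, exact adjusted p = 0.0499 and 0.0826), fell to 0.33 without controls 2 and 3 and so rested on them. For deviations from the group means, r was 0.79 to 0.99 for the 15 pairs without Lep and 0.28 to 0.67 for the 6 pairs with it. Libraries of a group share their genotype, which the deviations leave out.

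The genes whose levels were most like each hormone's were read from 9213 genes with a mean value of at least 5. For Adipoq they were Scd1 (r = 0.98), Prkar2b (0.96), Ntrk2 (0.93), Lpp (0.91) and Tbl1xr1 (0.90), and only 1 of the searched genes came closer to Adipoq than Cidec and 2 came closer than Plin1. Scd1, the stearoyl-CoA desaturase, read 64.3, 209 and 196 in the controls, 92.7, 32.1 and 125 in p38α KO muscle and 99.0, 137 and 156 in the p38α/γ KO. For Lep they were the calcium pump Atp2b4 (r = 0.95), the phosphatase Dusp16 (0.92), the amine oxidase Aoc3 (0.92), Camta2 (0.92) and Maea (0.91). Aoc3, itself abundant in fat cells, read 9.62, 24.0 and 21.8 in the controls, 9.94, 9.04 and 10.05 in p38α KO muscle and 11.5, 11.6 and 11.3 in the p38α/γ KO, so that, as for Lep, only controls 2 and 3 stood out. No gene was shared between the 2 short lists, and 670 searched genes were closer to Lep than Adipoq was. These values of r are descriptions over 9 libraries that share 3 genotypes, the best of many genes, and carry no test.

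**Figure D3:**
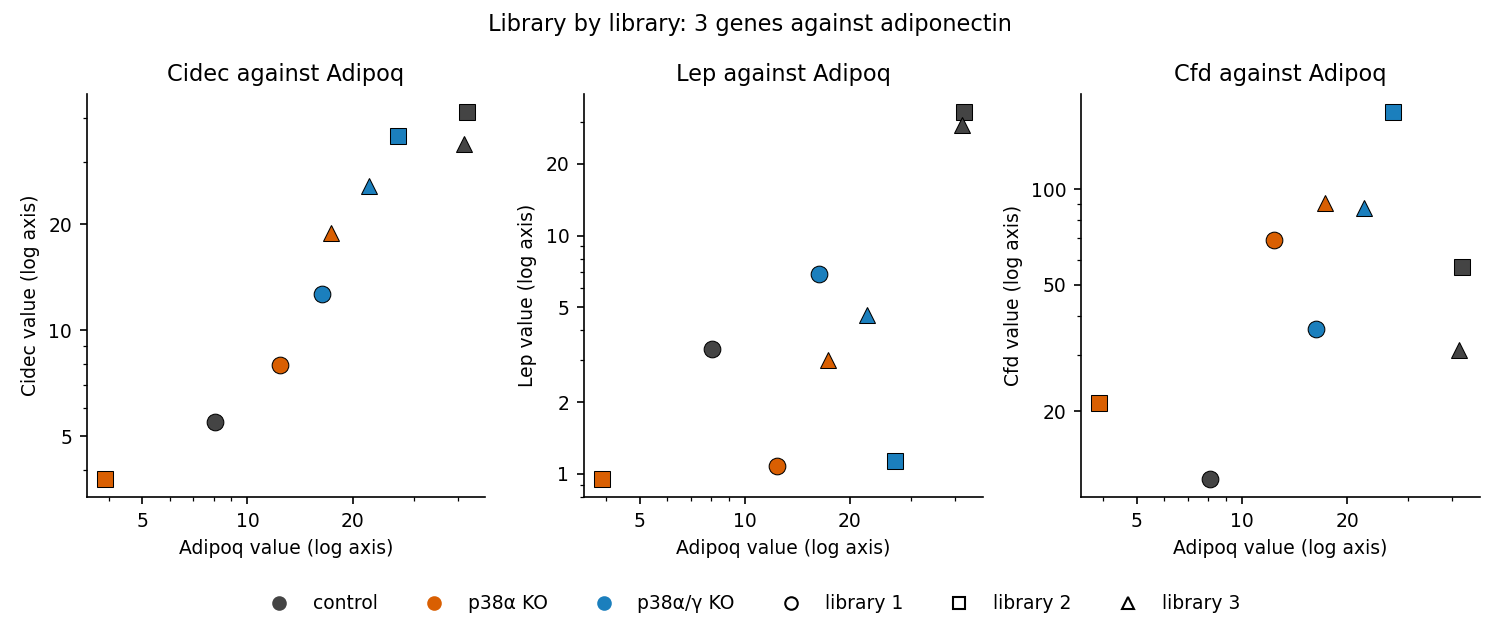
Cidec, Lep and Cfd plotted against Adipoq in the same library, all as normalised values on log axes, with 1 point per library (colour for the group, shape for the library number). Cidec rises with Adipoq across the groups, p38α/γ KO library 2 has a high Adipoq value with a Lep value of 1.14, and all 6 knockout points have more Cfd per Adipoq than any control.

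Because the amount of adipocyte message differed from library to library, each gene was divided by Adipoq in the same library. The Lep to Adipoq ratio was 0.414, 0.776 and 0.698 in the controls, 0.0871, 0.244 and 0.174 in p38α KO muscle and 0.424, 0.0420 and 0.208 in the p38α/γ KO. The p38α KO lay wholly below the controls, as did 0.0609% of all genes after the same division, while 1 p38α/γ KO library fell just within them. Divided by Plin1 instead, Lep was 1.19, 2.36 and 2.35 in the controls, 0.189, 0.475 and 0.417 in p38α KO muscle and 0.788, 0.0672 and 0.411 in the p38α/γ KO. Both knockouts were then wholly below the controls (0.107% and 3.69% of all genes). Shares of genes after a division depend on the spread of the divisor as well as on each gene. Adipoq ran from 8.08 to 42.6 in the controls and from 3.90 to 17.3 in p38α KO muscle. Such shares therefore do not measure how rare a pattern is.

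The Cfd to Adipoq ratio was 1.52, 1.33 and 0.744 in the controls, 5.60, 5.46 and 5.21 in p38α KO muscle and 2.23, 6.48 and 3.90 in the p38α/γ KO. Every knockout library was above every control. Retn to Adipoq was 0.113, 0.141 and 0.121 in the controls, 0.489, 0.295 and 0.287 in p38α KO muscle and 0.182, 0.370 and 0.309 in the p38α/γ KO. Plin1 to Adipoq was 0.348, 0.329 and 0.297 in the controls, 0.462, 0.513 and 0.416 in p38α KO muscle and 0.538, 0.625 and 0.507 in the p38α/γ KO. These 3 ratios to Adipoq were thus higher without overlap in both knockouts, as they were for 2.93% and 1.76% of all genes. Those shares again depend on the spread of Adipoq itself. The ratios of Cidec and Fabp4 overlapped. Over Plin1, the Cfd ratio was 4.35, 4.05 and 2.51 in control libraries, 12.1, 10.6 and 12.5 in p38α KO muscle and 4.14, 10.4 and 7.69 in the p38α/γ KO. That of Retn was 0.324, 0.427 and 0.407 in control libraries, 1.06, 0.576 and 0.689 in p38α KO muscle and 0.337, 0.593 and 0.609 in the p38α/γ KO. Over Plin1 both thus stayed wholly above the controls in the p38α KO (1.68% of all genes) and overlapped them in the p38α/γ KO, where the ratio of geometric means was 1.95 for Cfd and 1.29 for Retn.

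**Figure D4:**
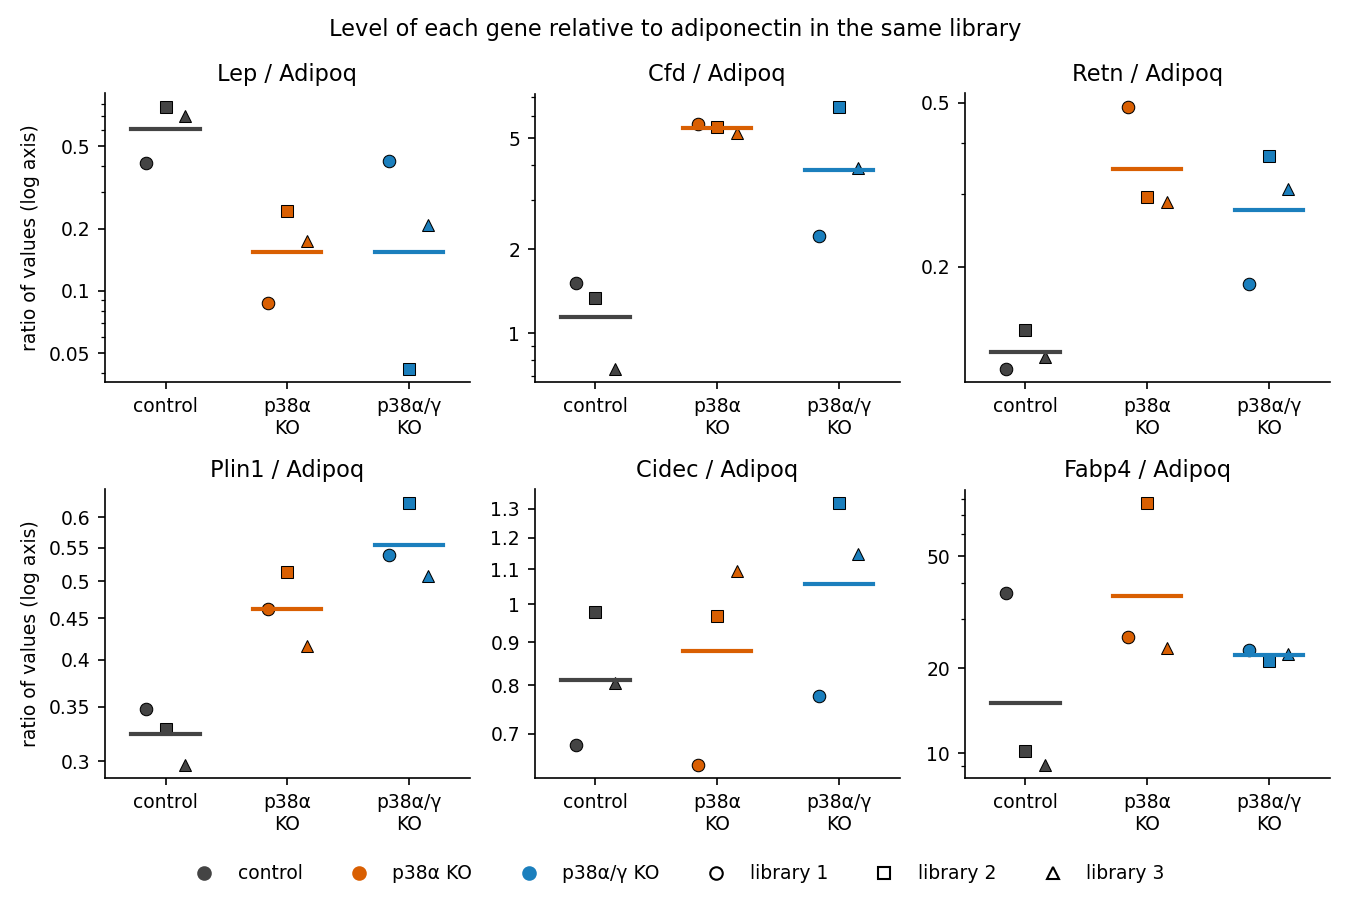
Each gene's normalised value divided by that of Adipoq in the same library, on log axes, with 1 point per library (colour for the group, shape for the library number) and a line at the geometric mean. Cfd, Retn and Plin1 are above the controls in all 6 knockout libraries, and Lep is below them in the 3 p38α KO libraries.

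With log2(Adipoq + 1) as a covariate in the limma fit, an alternative chosen after seeing the data, Cfd was higher by a log2 change of 2.10 in the p38α KO (adjusted p = 0.0314) and 1.71 in the p38α/γ KO (adjusted p = 0.0189). Retn was higher by 1.17 (adjusted p = 0.0479) and 0.87 (adjusted p = 0.0388), and Plin1 passed in the p38α/γ KO alone (0.66, adjusted p = 0.0126, against 0.32 and 0.186 in the p38α KO). In these fits 2.52% and 9.63% of all genes passed as higher. Lep did not pass with this covariate (log2 -1.67, adjusted p = 0.166, and -1.69, adjusted p = 0.0696) or with Plin1 as covariate (-2.06, adjusted p = 0.0839, and -2.28, adjusted p = 0.0522). With 1 library left out, Lep passed in the p38α/γ KO in 3 of 9 fits with Adipoq and 4 with Plin1. In the p38α KO it passed in 0 and 1 of these fits.

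These covariate calls depended on single libraries. When each of the 9 was left out in turn, Cfd kept its call in 4 fits in either comparison, with log2 changes of 1.93 to 2.96 and 1.303 to 2.20. It was lost in both without any 1 of the controls or without p38α/γ KO 3, in the p38α KO without its library 2 and in the p38α/γ KO without its library 2 (adjusted p up to 0.250 and 0.0774). Retn kept its call in 2 and 3 of the fits, both without p38α KO 3 or p38α/γ KO 1 and the second also without p38α KO 1. Plin1 kept it in the p38α/γ KO in 6, all but those without control 1, control 3 or p38α/γ KO 2. With Plin1 as covariate, Cfd passed in the p38α KO (log2 1.75, adjusted p = 0.0193, with 4.64% of all genes higher) but not in the p38α/γ KO (0.91, adjusted p = 0.0871). The first call was lost without any 1 of the controls (adjusted p up to 0.104), and the second comparison passed in 2 of the 9 fits. Retn also passed in the p38α KO (0.84, adjusted p = 0.0495), in 1 of the 9 fits with a library left out, and was 0.17 in the p38α/γ KO (adjusted p = 0.606). Adipoq itself was lower at a given Plin1, by a log2 change of -0.78 in the p38α/γ KO (adjusted p = 0.0131, with 8.34% of all genes lower) and -0.41 in the p38α KO, which did not pass (adjusted p = 0.0812). The Adipoq call held in 6 of the 9 fits (-0.85 to -0.67) and was lost without control 2, control 3 or p38α/γ KO 3 (adjusted p up to 0.0973).

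Markers of other cell types differed in how far they moved with the genotype. The 7 macrophage markers, a cell type that also makes Fabp4, summed to 42.5 to 58.8 in the controls, 79.7 to 199 in the p38α KO and 96.2 to 190 in the p38α/γ KO. By the test 6 and 7 of them rose, against 7.32% and 11.2% of all genes. The 8 markers of fibro-adipogenic progenitors, the mesenchymal cells that can become fat cells in muscle, summed to 1407 to 1825, 1650 to 1919 and 1997 to 2629. Of these 1 and 5 rose, against the same 7.32% and 11.2%, and the sums of the p38α KO overlapped those of the controls. Of the 5 endothelial markers none passed in the p38α KO, beside 17.8% of all genes. In the p38α/γ KO 1 of them fell, beside 14.4% of all genes. Of 4 tendon cell markers none passed in the p38α KO, beside the same 17.8%. In the p38α/γ KO 1 of these rose, beside 11.2% of all genes. The part of these cell types in the adipocyte gene values was not tested.

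Few other white adipocyte genes passed the test. Of 24 tested, 1 rose and 1 fell in the p38α KO and 2 rose and 2 fell in the p38α/γ KO, with median log2 changes of -0.22 and 0.18 against 0.01 and 0.02 for all genes. Of all genes tested, 7.32% rose and 10.4% fell in the p38α KO and 11.2% rose and 14.4% fell in the p38α/γ KO. Adig, or adipogenin, a small droplet protein, rose 1.98-fold in the p38α KO (adjusted p = 0.0155) and 1.79-fold in the p38α/γ KO (0.0228), from 4.64, 3.50 and 4.01 in the controls to 12.5, 7.54 and 7.56 and to 5.90, 9.48 and 9.07. Thrsp, a factor for fatty acid synthesis, rose 1.73-fold in the p38α/γ KO (adjusted p = 0.0195). Gpd1, the glycerol phosphate dehydrogenase that muscle also makes, fell 1.60-fold and 1.53-fold (adjusted p = 0.0201 and 0.0229), and Car3, carbonic anhydrase 3 of fat and muscle, fell 1.89-fold in the p38α/γ KO (adjusted p = 0.0125).

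Of 10 brown adipocyte genes tested, 1 rose in the p38α KO and 2 rose in the p38α/γ KO, beside 7.32% and 11.2% of all genes. None fell, beside 10.4% and 14.4% of all genes. The defining Ucp1 and Elovl3 had no row. Ppargc1a, a coactivator of mitochondrial genes that muscle also makes, rose 1.60-fold (adjusted p = 0.00731) and 1.44-fold (0.0163). Dio2, which activates thyroid hormone, rose 2.56-fold in the p38α/γ KO (adjusted p = 0.0436) from 2.57, 1.48 and 1.89 to 6.60, 6.72 and 6.29.

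The receivers of the 2 hormones were also read. The leptin receptor Lepr was scarce, at 2.82, 3.61 and 2.80 in the controls, 1.2997, 2.65 and 4.43 in p38α KO muscle and 2.47, 2.29 and 2.68 in the p38α/γ KO, and did not pass (adjusted p = 0.649 and 0.538). Jak2, the kinase bound to that receptor, read 60.4, 59.1 and 61.5 in the controls, 23.6, 39.9 and 52.2 in p38α KO muscle and 39.2, 31.6 and 33.5 in the p38α/γ KO. It fell 1.72-fold in the p38α/γ KO (adjusted p = 0.0334), and in the p38α KO the fold of 1.63 did not pass (adjusted p = 0.0590). Its adaptor Sh2b1 fell 1.25-fold (adjusted p = 0.0211) and the transcription factor Stat3 rose 1.29-fold (0.0401) in the p38α/γ KO.

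On the adiponectin side, Appl1, the adaptor of the adiponectin receptors, read 33.1, 33.0 and 33.5 in the controls, 20.3, 24.2 and 25.8 in p38α KO muscle and 22.9, 22.1 and 23.2 in the p38α/γ KO. It fell 1.41-fold and 1.44-fold (adjusted p = 0.0105 and 0.00771). Cdh13, or T-cadherin, which binds adiponectin at the cell surface, rose 1.33-fold and 1.52-fold (adjusted p = 0.0352 and 0.00863). The receptor Adipor1 fell 1.35-fold in the p38α KO (adjusted p = 0.0462; 1.31-fold and 0.0535 in the p38α/γ KO), and Adipor2 fell 1.42-fold in the p38α/γ KO (0.0395; 1.32-fold and 0.0958 in the p38α KO). In all, of 15 genes of the signalling list, 1 rose and 2 fell in the p38α KO and 2 rose and 4 fell in the p38α/γ KO, beside 17.8% and 25.6% of all genes called.

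Regulators of adipocyte formation were measured in all 17 cases. In the p38α KO 3 rose and 2 fell, and in the p38α/γ KO 2 rose and 3 fell, beside the same 17.8% and 25.6% of all genes. Pparg, the master regulator of fat cells, read 4.48, 6.26 and 5.01 in the controls, 3.02, 4.47 and 4.78 in p38α KO muscle and 4.33, 4.52 and 4.28 in the p38α/γ KO and did not pass (adjusted p = 0.210 and 0.350). Cebpa did not pass either (adjusted p = 0.919 and 0.127). Srebf1, a lipogenic factor of muscle and fat, fell 1.94-fold and 1.71-fold (adjusted p = 0.000657 and 0.00181), and Rxra, the PPAR partner, fell 1.53-fold and 1.49-fold (0.0324 and 0.0325). Cebpb rose 1.38-fold and 1.45-fold (adjusted p = 0.0257 and 0.0138) and Klf5 rose 1.42-fold and 1.35-fold (0.0267 and 0.0354). Mlxipl, or ChREBP, rose 1.34-fold in the p38α KO (adjusted p = 0.0433), and Nr1h3, or LXRα, fell 1.35-fold in the p38α/γ KO (0.0211). Of the 28 calls in these 4 lists, 6 held with each library left out in turn (Srebf1 and Appl1 in both comparisons, Ppargc1a in the p38α KO and Cdh13 in the p38α/γ KO). The other 22 were each lost without at least 1 control library.

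**Figure D5:**
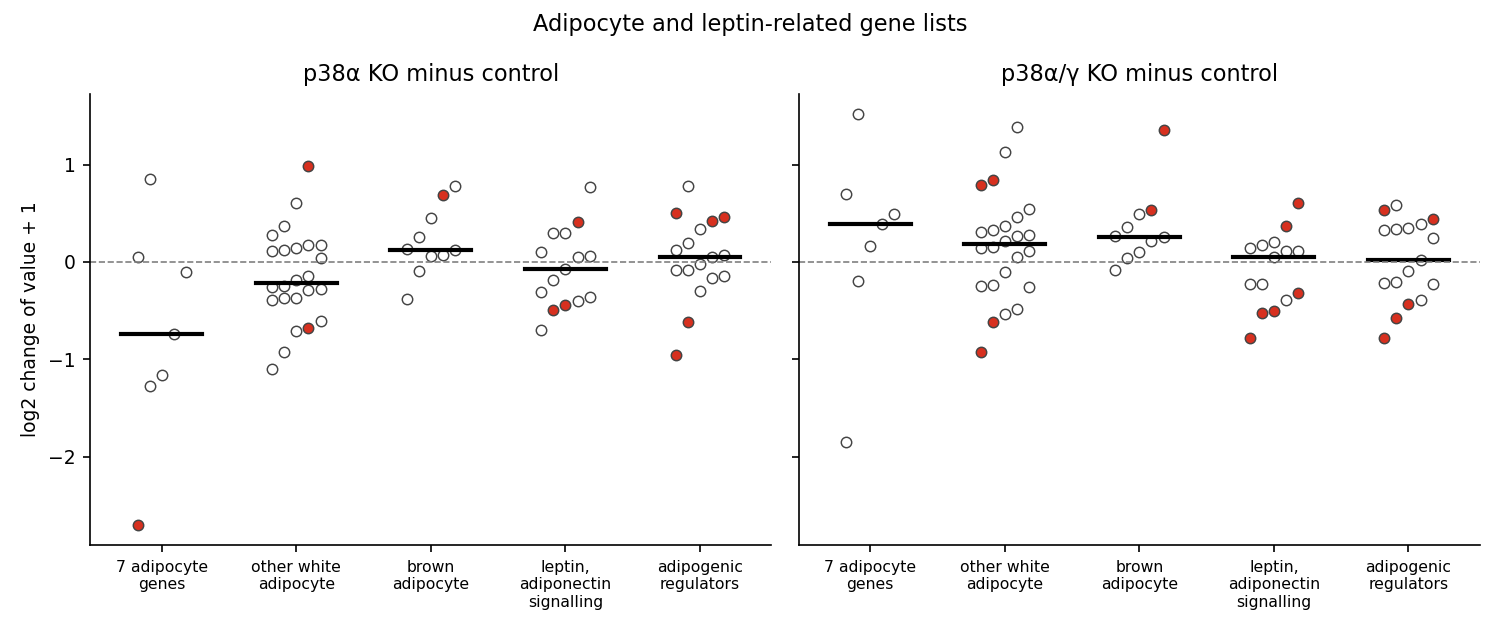
Log2 change of value + 1 against control for the 7 genes and 4 related lists, 1 point per gene, red where the adjusted p was below 0.05, with a line at the list median. Lep is the one red point of the 7, in the p38α KO, and the other lists centre near 0.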

How the data were processed

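Polyadenylated RNA of the gastrocnemius was sequenced as 51-base single reads, per the labels' protocols. Per the submitters' processing notes, the tools were RSEM 1.3.1, cutadapt, CASAVA 1.8 and limma, with GRCm38 as the build; the order of the steps and the annotation release are not given in the sources used here. The deposited table, which the authors name normalised counts, holds 1 signal value per gene and library. All values were a whole number plus 0.5 on a scale set per library (100% within 0.001 reads), and reads and depth were inferred from that; no source states it, so no count model was used. No sample column was unused.

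Values were taken as log2(value + 1), and only genes reaching 1 in 3 or more libraries entered limma (3.58.1, R 4.3.3). All 9 libraries shared 1 fit with a trended empirical Bayes step. Calls needed p below 0.05 after Benjamini-Hochberg adjustment, made separately for the 3 comparisons the submitters name. Fold changes are of value + 1, which understates low genes. The fit was tested on simulated data. Exact permutations, ratios and figures used Python 3.11.15, scipy 1.17.1 and matplotlib 3.10.9. Gene symbols were those of the deposited table. GENCODE M21 gave coordinates and exon lengths for 13166 of 13179 identifiers. Promoter sequences came from RefSeq (GRCm38.p6) and matched 6 of the 7 genes; Fabp4 is named only.

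The 7 genes and the lists were chosen with earlier results of these data known. Genes named are the 7, every called gene of the 4 related lists, the 5 genes most like Lep or Adipoq, Mapk14 and Mapk12. Some abundant uncalled genes of the lists are named too, not strictly by abundance. Slc2a4 is named and the more abundant uncalled Acsl1 is not described. Lepr, Pparg and Cebpa were added for their roles after their values were seen. Alternatives changed the filter, pseudocount, scaling, spread estimate, libraries in the fit, block and covariates; each library in turn was also dropped. Fits with a covariate, or with the block on 6 libraries only, were added once the data had been seen. Same-numbered libraries deviated together for the p38α/γ KO and control (correlations 0.111, 0.124 and 0.148), from the data and not the labels, but not for p38α KO and control (-0.0858, -0.0866 and 0.0951). Differently numbered libraries of the 2 knockouts reached 0.351, so these correlations do not show a pairing.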

Additional observations from a re-analysis of the deposited data

How the results depend on the processing

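Genes passing in the p38α KO numbered 2332, against 1379 with the 6 libraries of the comparison, 986 with Adipoq as covariate and 801 to 3241 with 1 library left out. In the p38α/γ KO 3368 passed, against 5478 with 6 libraries, 5563 with those paired by the replicate block, 1856 with Plin1 as covariate and 844 to 5346 with 1 library left out. Between the knockouts 58 passed, against 22, 32 (replicate block), 22 (Adipoq as covariate), 20 (Plin1 as covariate) and 13 to 1862. The cause was not tested. Of 21 pairs of the 7 genes 12 passed by Pearson r, and 5 to 14 did with 1 library left out. By Spearman rho 9 of the 15 pairs without Lep passed, and none of the 6 pairs with it. The block with all 9 libraries also ended the Lep call in the p38α KO (adjusted p = 0.0523). No label states that the numbers mark a pairing. The fall of Lep in the p38α KO kept its sign in all 22 alternatives and its call in 13. Among changes that passed no test, signs turned as follows. Retn in the p38α KO was -0.049 with quantile normalisation, and ran from -0.53 (without control 1; also below 0 without p38α KO 1 or 3) to 0.59 with 1 library left out. Fabp4 there was 0.030 with quantile normalisation, 0.18 and 0.10 with Adipoq and Plin1 as covariates, and -0.25 to 0.018 (without control 2) with 1 library left out. Cidec and Plin1 there were 0.27 and 0.32 with Adipoq as covariate. In the p38α/γ KO, leaving out 1 library gave -0.95 to 0.19 for Adipoq (above 0 without control 2 or 3), -0.70 (without control 1; also below 0 without p38α/γ KO 2) to 0.66 for Cidec and -0.14 (without control 1) to 0.85 for Plin1, and Cidec was -0.51 with Plin1 as covariate. Between the knockouts, Retn, Lep and Cfd were 0.30, 0.024 and 0.39 with Adipoq as covariate, and Retn, Lep, Cfd, Adipoq and Cidec were 0.67, 0.21, 0.83, 0.37 and 0.33 with Plin1. With 3 libraries a group and no covariate or block, the 95% intervals of the 7 genes except Fabp4 reach more than a log2 unit either way.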

Other observations

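Of the adipocyte genes that muscle also expresses, 3 abundant ones did not pass the test in either knockout. Gpd1 passed in both, and Car3 passed in the p38α/γ KO but not in the p38α KO (limma adjusted p = 0.192). Lpl, the lipase that frees fatty acids from lipoproteins, read 1038 ± 109 (SD, n = 3) in control muscle, 1164 ± 279 with p38α lost and 1257 ± 137 with both kinases lost (limma adjusted p = 0.614 and 0.268). Cd36, a fatty acid transporter, read 576 ± 65.8, 488 ± 111 and 479 ± 19.8 (adjusted p = 0.270 and 0.229). Fabp3, the muscle counterpart of Fabp4, read 1048 ± 122, 1140 ± 402 and 1263 ± 182 (adjusted p = 0.873 and 0.410). Also uncalled but nearer to a call were Pnpla2, higher in both knockouts (adjusted p = 0.162 and 0.0733), and Slc2a4, lower in both (0.0601 and 0.0663). Among the signalling and regulator lists, the most abundant genes without a call were Irs1, the insulin receptor substrate (62.9 ± 15.99, 50.1 ± 20.4 and 67.3 ± 10.5), and Klf15 (38.4 ± 1.01, 37.4 ± 11.0 and 36.1 ± 3.61).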
